A study of Mus musculus with 10 samples.

Results

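The Wnt pathway genes described here are 60 named genes out of the 49671 in the table: 15 Wnt ligands, 2 genes of ligand secretion, 15 receptors and co-receptors, 13 secreted inhibitors, 5 genes of the R-spondin and receptor ligase branch, 4 feedback inhibitors inside or on the cell, 2 nuclear partners of beta-catenin and 4 core transduction genes. They were listed by name as known components of the pathway, with earlier results of these data known, and each was found once in the table. Of the 60, 52 passed the filter for testing, which asked for 10 or more normalized counts in 2 or more libraries. The 8 that did not pass are Wnt2, Dkk1, Dkk2, Sfrp4, Frzb, Rspo1, Rspo2 and Rspo3.

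RNA was sequenced in bulk from SmoM2-YFP-positive mouse epidermal cells isolated by FACS, in 5 groups of 2 libraries each. SmoM2 is a constitutively active form of Smoothened, the transducer of Hedgehog signalling, and it drives basal cell carcinoma in mouse skin. All 5 groups carried Rosa-SmoM2, so no group without active Smoothened enters any comparison. The LOF group was Krt14-CREER/Rosa-SmoM2/Survivin LOF, labelled 6 weeks of TAM. The GOF group was Inv-CREER/Rosa-SmoM2/Krt14rtTA/Survivin-GOF, labelled 8 weeks. The Krt14 8-week and Krt14 6-week groups were Krt14-CREER/Rosa-SmoM2 without a Survivin allele, and the Inv group was Inv-CREER/Rosa-SmoM2 at 8 weeks. Krt14 is a promoter of basal keratinocytes and involucrin (Inv) one of suprabasal, differentiating keratinocytes, so the drivers start SmoM2 in different epidermal layers. GOF differs from Inv by Krt14rtTA as well as by the Survivin allele, and the effects of these cannot be told apart. The labels call the Inv libraries pools, and give neither the age or sex of the animals nor whether the libraries of a group came from separate animals. All p-values below therefore measure the spread between libraries, which may be technical.

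Wnt ligands are lipid-modified by Porcupine and carried to the surface by Wntless, and bind Frizzled receptors. With Lrp5 or Lrp6 as co-receptor, binding stops the Axin, Apc and Gsk3b complex from marking beta-catenin for destruction, and beta-catenin then acts with Lef1 and Tcf7 on target genes, several of which feed back as inhibitors. Ligands such as Wnt5a act mainly through Ror1, Ror2 and Ryk without beta-catenin. In skin the pathway is known for starting hair follicles and for keeping follicle and interfollicular stem cells active.

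The RefSeq promoter table for GRCm38.p6, which spans 250 bases before to 50 bases after each start site, held windows for 38 of the 60 genes. The letters CTTTGAA or CTTTGAT, bound by Lef1 and the Tcf factors, were found on either strand in 3 of 47 windows of these genes (6.38%), those of Dkk1, Wnt11 and Wnt5b, against 8.65% of all 32851 windows. The letters CCACCCA, the core of the motif of the Gli factors that end Hedgehog signalling, were found in 2 of the 47 windows (4.26%), against 9.30% of all windows. A match is a description and not a binding site. The 4 windows below are shown because Fzd7 and Ror2 are the genes with a CCACCCA match, Wif1 had the largest change of any of the 60 genes, and Axin2 is the textbook target of beta-catenin. Capitals mark CCACCCA or, where the match lies on the other strand, its reverse complement. In Fzd7 the match starts 159 bases before the start site and in Ror2 245 bases before it. Each runs 5′ to 3′ on the strand of its gene. Fzd7 lies at chr1:59481897-59482196 on the plus strand, Ror2 at chr13:53286075-53286374 on the minus strand, Wif1 at chr10:121033754-121034053 on the plus strand and Axin2 at chr11:108920099-108920398 on the plus strand.
Fzd7: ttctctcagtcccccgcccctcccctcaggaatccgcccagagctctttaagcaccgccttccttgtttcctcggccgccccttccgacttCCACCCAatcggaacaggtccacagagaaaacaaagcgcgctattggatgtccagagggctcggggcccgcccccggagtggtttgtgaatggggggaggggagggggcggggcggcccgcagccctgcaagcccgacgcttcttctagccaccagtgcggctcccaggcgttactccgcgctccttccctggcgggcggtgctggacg
Ror2: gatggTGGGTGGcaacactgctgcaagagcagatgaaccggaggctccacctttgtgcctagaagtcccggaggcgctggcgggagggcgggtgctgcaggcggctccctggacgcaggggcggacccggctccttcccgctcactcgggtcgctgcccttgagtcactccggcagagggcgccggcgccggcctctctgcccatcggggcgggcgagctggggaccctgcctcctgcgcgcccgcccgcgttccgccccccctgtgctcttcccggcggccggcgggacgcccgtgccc
Wif1: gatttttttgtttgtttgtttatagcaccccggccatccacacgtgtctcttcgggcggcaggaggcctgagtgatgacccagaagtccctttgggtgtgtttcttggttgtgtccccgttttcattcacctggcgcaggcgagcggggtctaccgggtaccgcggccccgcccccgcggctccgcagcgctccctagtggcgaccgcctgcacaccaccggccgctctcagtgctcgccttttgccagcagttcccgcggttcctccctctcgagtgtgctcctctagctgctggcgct
Axin2: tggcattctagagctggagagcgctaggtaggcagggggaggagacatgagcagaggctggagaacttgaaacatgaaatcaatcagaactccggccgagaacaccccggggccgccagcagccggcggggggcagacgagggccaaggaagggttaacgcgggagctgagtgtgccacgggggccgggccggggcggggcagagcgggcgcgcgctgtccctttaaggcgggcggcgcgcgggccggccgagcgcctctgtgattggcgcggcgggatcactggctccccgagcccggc

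Birc5, which encodes Survivin, was read first as a check of the labels. It had 382 and 429 normalized counts in the LOF libraries, 7277 and 16384 in GOF, 1005 and 926 in Krt14 8-week, 961 and 1103 in Krt14 6-week and 237 and 265 in Inv. It fell by 1.34 on the log2 scale in LOF relative to Krt14 6-week (SE 0.28, limma adjusted p = 0.00429) and was 43.4-fold higher in GOF than in Inv (adjusted p = 2.17e-06). Xist, the RNA of the inactive X chromosome, moved with the Survivin groups: it had 30024 and 59594 in LOF and 7589 and 56185 in GOF, against 51 and 118 in Krt14 8-week, 94 and 57 in Krt14 6-week and 194 and 145 in Inv. The Y-linked gene Ddx3y was read in all libraries, at 1336 and 956 in LOF, 3328 and 970 in GOF and 2289 to 2909 in the other groups. LOF and GOF replicate 2, the libraries with the most Xist, had the least Ddx3y. The Xist level and Survivin status therefore cannot be told apart in these groups.

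The depth behind each library was 7693167 to 8870758 reads as recovered from the table's steps, and 3 reads were worth 6.76 to 7.80 normalized counts. The markers of basal keratinocytes (Krt14, Krt5, Trp63 and others) were high in every library, with a summed level of 187206 to 349889. Summed markers of other cells moved with the groups, in some lists through a single gene. The 8 sebaceous gland genes summed to 28745 to 43745 in LOF, 45787 to 59812 in GOF, 32700 to 35872 in Krt14 8-week, 14979 to 15611 in Krt14 6-week and 158262 to 160119 in Inv. The 8 hair matrix and shaft genes, which include Lef1, summed to 2633 to 3327 in LOF, 4713 to 6400 in GOF, 2079 to 2676 in Krt14 8-week, 1362 to 1991 in Krt14 6-week and 7074 to 7630 in Inv. Krt36 was the largest part of the GOF and Inv sums, at 2564 to 3098 and 3428 to 3700. It had 491 and 165 in LOF and 0 to 12 in the 4 Krt14 control libraries. Hoxc13 did not share this order, at 706 to 1008 in Krt14 6-week and 549 to 674 in GOF. The 7 melanocyte genes summed to 2860 to 3028 in LOF, 1737 to 1954 in GOF, 1333 to 1486 in Krt14 8-week, 880 to 923 in Krt14 6-week and 2275 to 2399 in Inv. The 8 dermal fibroblast genes summed to 18865 to 19219 in LOF, 14817 to 37688 in GOF, 1827 to 2468 in Krt14 8-week, 1303 to 2710 in Krt14 6-week and 18013 to 20092 in Inv. Most of that sum was Dcn, and the low sums in the 4 Krt14 control libraries were those of Dcn. Without Dcn the list summed to 872 and 1166 in LOF, 286 and 305 in GOF, 233 and 253 in Krt14 8-week, 505 and 140 in Krt14 6-week and 498 and 527 in Inv. Pdgfra lay between 0 and 26. The 8 dermal papilla genes summed to 342 to 352 in LOF, 256 to 404 in GOF, 1086 to 1299 in Krt14 8-week, 622 to 736 in Krt14 6-week and 280 to 282 in Inv. The high sums in the 4 Krt14 control libraries were those of Prdm1, at 538 to 1219 there and 114 to 281 elsewhere. No other gene of the list was higher in all 4 Krt14 control libraries than elsewhere, and Sox18 was lower, at 0 to 13 against 21 to 82. The 8 suprabasal keratinocyte genes summed to 26396 to 37565 in LOF, 28615 to 46074 in GOF, 51755 to 56111 in Krt14 8-week, 22429 to 29507 in Krt14 6-week and 34403 to 36630 in Inv. In LOF relative to Krt14 6-week, 3 of these 8 genes were higher and 4 lower in the limma test used below. Their median log2 change was -0.83. Dsg1a was the largest part of the LOF sums, at 16724 and 13490, against 5945 and 4946 in Krt14 6-week. Ivl had 35 and 32 in LOF, against 172 and 189 in Krt14 6-week, and Sbsn 769 and 634, against 1935 and 2177. The 6 endothelial genes summed to 105 to 129 in LOF, 342 to 1257 in GOF, 294 to 355 in Krt14 8-week, 176 to 229 in Krt14 6-week and 318 to 353 in Inv, and the 1257 belonged to GOF replicate 2, where Kdr, Cdh5, Emcn, Pecam1 and Tie1 were at their highest and Vwf, at 60, was not. The part of these cells in the results below was not tested, and in bulk RNA fewer cells of a type and less RNA per cell cannot be told apart. Exons of 11 of the 60 genes overlap those of a gene on the other strand, among them Wnt5a, Wnt7b, Wnt11, Fzd5, Fzd6, Axin2, Lef1 and Ctnnb1, and with the strand setting of the counting not given in the sources used here, reads of the partners cannot be told apart.

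In the fit to all 10 libraries, more of the Wnt genes changed with Survivin loss than in any other comparison, and so did more of all genes tested. This order turned in 2 alternatives, for all genes too. With the Xist level as a covariate, 24 changed in Krt14 8-week relative to Inv (5148 of all genes). In LOF relative to Krt14 6-week it was 11 (941 of all genes). In fits to only the groups compared the counts were 25 (5916 of all genes) and 24 (5899). Fits with 1 library left out covered only the comparisons that held that library, so the order was not read there. In LOF relative to Krt14 6-week, 29 of the 52 tested (55.8%) changed at a limma adjusted p of 0.05, 20 higher and 9 lower, against 30.9% of all 21995 genes tested, 19.5% higher and 11.4% lower. In GOF relative to Inv, 13 (25%) changed, 8 higher and 5 lower, against 15.3% of all genes, 6.87% higher and 8.40% lower. Between drivers at 8 weeks, Krt14 relative to Inv, 22 (42.3%) changed, 12 higher and 10 lower, against 19.6% of all genes, 8.18% higher and 11.4% lower. Krt14 at 8 weeks relative to 6 weeks had 7 (13.5%) changed, 4 higher and 3 lower, against 4.88% of all genes, 4.02% higher and 0.855% lower. In GOF relative to Krt14 8-week, 22 changed, 13 higher and 9 lower, against 27.7% of all genes, 15.2% higher and 12.5% lower. The median log2 change of the Wnt genes stood beside that of all tested genes at 0.21 and 0.16 in LOF relative to Krt14 6-week, 0.16 and -0.01 in GOF relative to Inv, and 0.05 and -0.10 in Krt14 8-week relative to Inv. It stood at 0.11 and 0.14 in Krt14 8-week relative to 6-week, and 0.23 and 0.09 in GOF relative to Krt14 8-week. Changes below are on the log2(normalized count + 1) scale.

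These counts changed with scaling and when 1 library was left out, which leaves 1 library in its group. Rescaling by the median of ratios put the median of all genes at 0.02 in LOF relative to Krt14 6-week and at 0.00 in Krt14 8-week relative to 6-week. The share of higher among all changed genes was then 49.0%, against 63.1% as deposited, in the first and 53.6%, against 82.5%, in the second, and 51.5%, against 41.8%, in Krt14 8-week relative to Inv. Of the Wnt genes, 17 were then higher and 9 lower in LOF than in Krt14 6-week, and 14 higher and 9 lower in Krt14 8-week than in Inv. GOF relative to Inv had 20 Wnt genes changed without GOF replicate 1 and 5 without either Inv library, and 1 in a fit to these groups alone. Krt14 8-week relative to Inv had 13 without Krt14 8-week replicate 1, 12 without its replicate 2, 14 without Inv replicate 1 and 13 without Inv replicate 2. Krt14 8-week relative to 6-week had 1 without 8-week replicate 1, 0 without 8-week replicate 2 (9 at an unadjusted limma p under 0.05) and 3 without 6-week replicate 2. GOF relative to Krt14 8-week had 14 without Krt14 8-week replicate 1 and 13 without replicate 2. With the Xist level as a covariate, 11 Wnt genes were called in LOF relative to Krt14 6-week, among them Wnt3, Wnt3a, Wnt4, Wnt7b, Wnt10b, Fzd10, Znrf3 and Nkd1. That fit called 1 gene in GOF relative to Inv (Wnt7b) and 2 in GOF relative to Krt14 8-week (Wnt4 and Wnt10b).

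**Figure D1:**
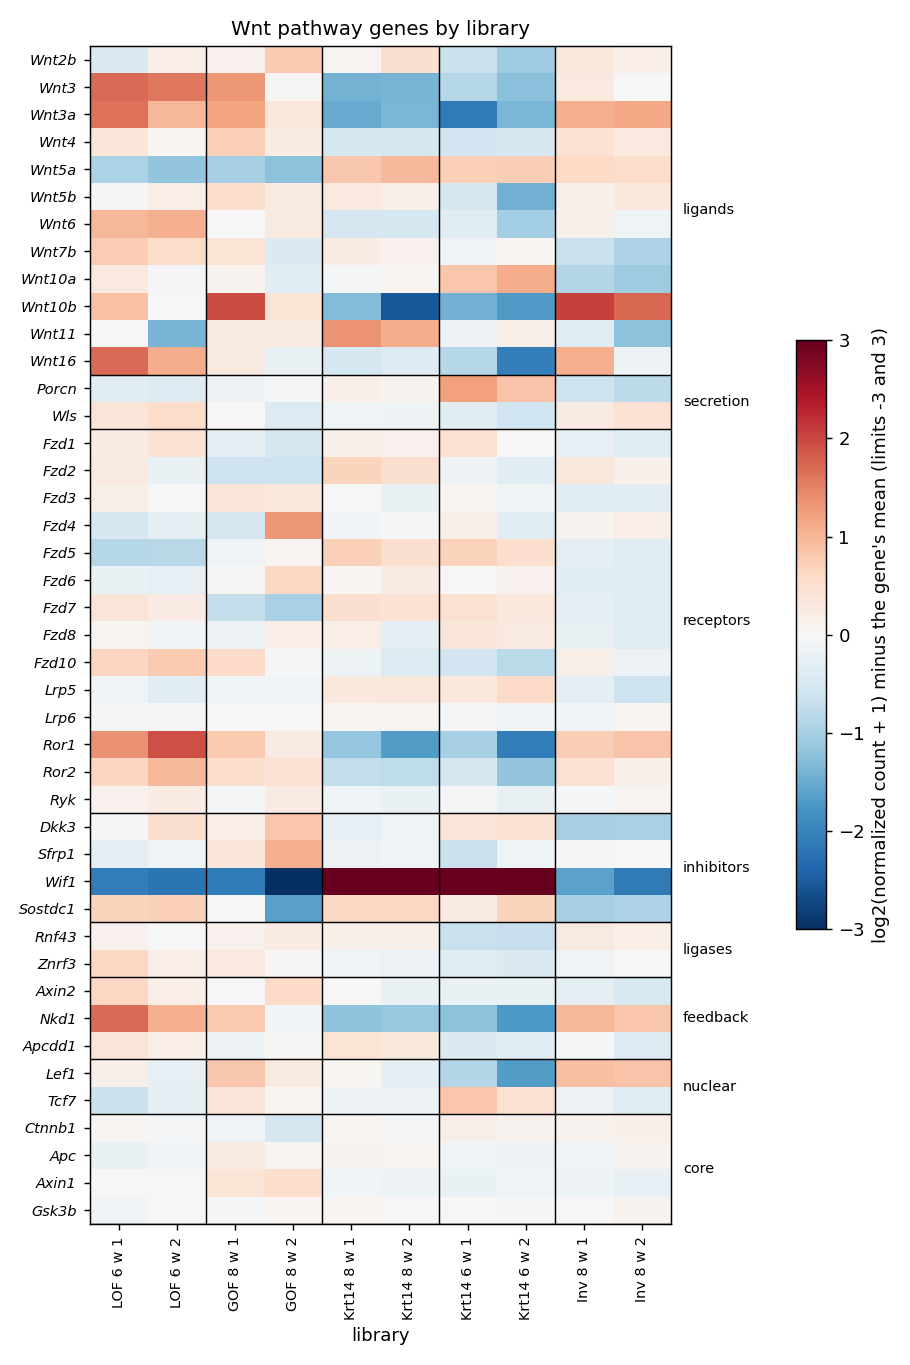
Heatmap of the 43 Wnt pathway genes with a group mean of at least 50 (rows, by role) in the 10 libraries (columns). Colour gives log2(normalized count + 1) minus the gene's own mean, drawn between -3 and 3; Wif1 is red in the 4 Krt14 control libraries, where it had 2177 to 2464 normalized counts, and blue in the other 6.

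By number, the Wnt ligands were the role with the most changes on Survivin loss: in LOF relative to Krt14 6-week, 9 of 14 tested were higher and 3 lower (85.7% changed, against 30.9% of all genes). Among roles with only 2 genes tested, both were called for secretion, the ligases and the nuclear partners. Wnt3, a ligand of the beta-catenin branch, had 533 and 497 normalized counts in LOF, 407 and 169 in GOF, 61 and 62 in Krt14 8-week, 91 and 68 in Krt14 6-week and 203 and 163 in Inv. Both Krt14 control groups lay below every other library, and LOF above every other. Wnt3 was 6.47-fold higher in LOF than in Krt14 6-week (log2 change 2.69, SE 0.34, limma adjusted p = 0.000237) and 4.21-fold higher in GOF than in Krt14 8-week (adjusted p = 0.0014). It was 2.93-fold lower in Krt14 8-week than in Inv (adjusted p = 0.00964).

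Wnt3a and Wnt10b, both activators of the beta-catenin branch with roles in hair growth, had the same low level in the Krt14 controls. Wnt3a had 174 and 113 in LOF, 128 and 71 in GOF, 19 and 21 in Krt14 8-week, 12 and 21 in Krt14 6-week and 117 and 125 in Inv. Its level was 8.35-fold higher in LOF than in Krt14 6-week (log2 change 3.06, SE 0.40, adjusted p = 0.000255), 4.59-fold higher in GOF than in Krt14 8-week and 5.81-fold lower in Krt14 8-week than in Inv. Wnt10b had 256 and 140 in LOF, 542 and 185 in GOF, 56 and 23 in Krt14 8-week, 51 and 42 in Krt14 6-week and 583 and 466 in Inv. The 2 GOF libraries spanned most of the range between LOF and Inv. Wnt10b was 4.03-fold higher in LOF than in Krt14 6-week (log2 change 2.01, SE 0.51, adjusted p = 0.0125), 8.59-fold higher in GOF than in Krt14 8-week and 14.1-fold lower in Krt14 8-week than in Inv (log2 change -3.82, SE 0.51, adjusted p = 0.000469).

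Wnt4, Wnt6 and Wnt16 were also higher in LOF than in Krt14 6-week. Wnt4 and Wnt7b had the highest mean levels per kilobase of exon among the ligands over the 10 libraries (382 and 443 normalized counts per kb), but the order varied by group: Wnt4 led in GOF (510) and Inv (468), Wnt10a in Krt14 6-week (552). Wnt4 had 1970 and 1599 in LOF, 2504 and 1771 in GOF, 1065 and 1064 in Krt14 8-week, 1028 and 1077 in Krt14 6-week and 2064 and 1859 in Inv. All 4 Krt14 control libraries lay at 1077 or below and the other 6 at 1599 or above. The change was 0.75 in LOF relative to Krt14 6-week (SE 0.16, adjusted p = 0.0047), 0.98 in GOF relative to Krt14 8-week and -0.88 in Krt14 8-week relative to Inv. Wnt6 had 902 and 945 in LOF, 457 and 539 in GOF, 315 and 312 in Krt14 8-week, 356 and 223 in Krt14 6-week and 501 and 414 in Inv, with LOF alone at 902 or above. It was 3.27-fold higher in LOF than in Krt14 6-week (log2 change 1.71, SE 0.21, adjusted p = 0.000165) and 1.58-fold higher in GOF than in Krt14 8-week (adjusted p = 0.0348). Wnt16 had 92 and 61 in LOF and 15 and 6 in Krt14 6-week, a change of 2.84 (SE 0.55, adjusted p = 0.00291); it lay between 19 and 60 in the remaining libraries.

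Wnt5a, the main ligand of the branch without beta-catenin, was low in both Survivin groups. It had 303 and 260 normalized counts in LOF, 294 and 250 in GOF, 1032 and 1153 in Krt14 8-week, 973 and 979 in Krt14 6-week and 895 and 861 in Inv. The 4 libraries with a Survivin allele lay at 303 or below and the other 6 at 861 or above. Wnt5a was 3.47-fold lower in LOF than in Krt14 6-week (log2 change -1.79, SE 0.14, adjusted p = 1.14e-05), 3.23-fold lower in GOF than in Inv (-1.69, SE 0.14, adjusted p = 3.89e-05) and 4.01-fold lower in GOF than in Krt14 8-week (-2.0, adjusted p = 7.99e-06). It kept each of these calls with any library left out. With Xist as a covariate all 3 calls ended, with changes of the same sign.

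Wnt7b and Wnt10a, keratinocyte ligands of the beta-catenin branch, changed with both driver and Survivin. Wnt7b had 3479 and 2997 in LOF, 2701 and 1514 in GOF, 2372 and 2239 in Krt14 8-week, 1887 and 2139 in Krt14 6-week and 1288 and 1084 in Inv; LOF was highest and Inv lowest. It was higher in LOF than in Krt14 6-week (0.68, SE 0.22, adjusted p = 0.0332), in GOF than in Inv (0.77, adjusted p = 0.0341) and in Krt14 8-week than in Inv (0.96, adjusted p = 0.0098). Wnt10a had 845 and 670 in LOF, 739 and 549 in GOF, 660 and 714 in Krt14 8-week, 1233 and 1493 in Krt14 6-week and 374 and 328 in Inv. Its level was highest in the Krt14 6-week libraries and lowest in Inv, with the other 3 groups overlapping between these. It was lower in LOF than in Krt14 6-week (-0.85, SE 0.18, adjusted p = 0.00443) and in Krt14 8-week than in 6-week (-0.98, adjusted p = 0.0142), and higher in GOF than in Inv (0.86, adjusted p = 0.00905) and in Krt14 8-week than in Inv (0.97, adjusted p = 0.00318).

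Of the less abundant ligands, Wnt5b had 60 and 68 in LOF and 41 and 21 in Krt14 6-week (1.09, SE 0.35, adjusted p = 0.0358), and 66 to 85 in the other libraries. Wnt11 had 100 and 85 in Krt14 8-week and 30 and 16 in Inv (2.02, SE 0.49, adjusted p = 0.0145), and 14 to 47 elsewhere. Wnt2b was never called and ranged from 24 to 89. Wnt7a (0 to 37) and Wnt9a (7 to 41) stayed below 50. In LOF relative to Krt14 6-week Wnt7a was called higher and Wnt9a lower, with Wnt7a at 0 in both Krt14 6-week libraries and Wnt9a at 13 and 7 in LOF. Wnt2 lay between 0 and 10. The summed ligand level was 8716 and 7454 in LOF, 8038 and 5304 in GOF, 5866 and 5882 in Krt14 8-week, 5789 and 6161 in Krt14 6-week and 6278 and 5517 in Inv, so LOF lay above both Krt14 groups and GOF spread widely.

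Several ligand calls ended under another scaling or when 1 library was left out. In LOF relative to Krt14 6-week, Wnt7b (0.54) and Wnt5b (0.96) lost their calls after median-of-ratios rescaling, and Wnt5b also after quantile normalization (0.68) and with voom on recovered reads (1.08). There too, Wnt7b lost its call without any 1 of the 4 libraries (0.58 to 0.79), Wnt5b without either LOF library or Krt14 6-week replicate 2 (0.63 to 1.18), Wnt10a without LOF replicate 2 or Krt14 6-week replicate 2 (-0.71 to -0.68) and Wnt10b without LOF replicate 1 or Krt14 6-week replicate 2 (1.58 to 1.87). In Krt14 8-week relative to Inv, Wnt3 (-1.56 to -1.39) ended without either Krt14 8-week library or Inv replicate 1. Wnt7b (0.84 to 1.00) and Wnt11 (1.59 to 2.14) ended there without either Krt14 8-week library or Inv replicate 2. In GOF relative to Inv, Wnt7b ended without GOF replicate 1 or either Inv library (0.36 to 0.90) and Wnt10a without Inv replicate 2 (0.77). Wnt6 in GOF relative to Krt14 8-week ended without GOF replicate 2 or either Krt14 library (0.54 to 0.67), and Wnt10a in Krt14 8-week relative to 6-week without either 8-week library or 6-week replicate 2 (-1.04 to -0.84).

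**Figure D2:**
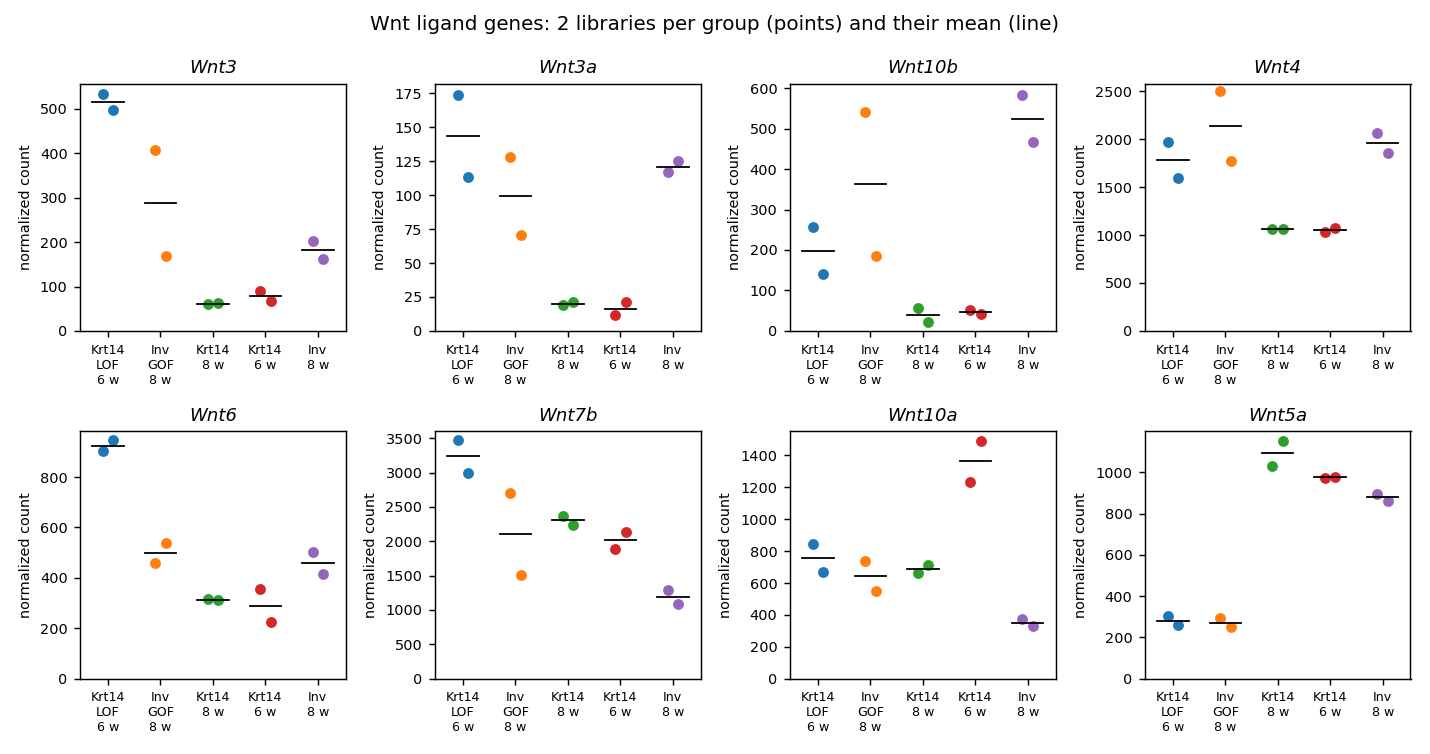
Normalized counts (y axis, from 0) of 8 ligand genes in the 5 groups (x axis); points are the 2 libraries of a group and the line their mean. Wnt3, Wnt3a, Wnt10b and Wnt4 are lowest in the Krt14 control groups, and Wnt5a is at 303 or below in the LOF and GOF libraries.

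The secretion genes moved against each other. Porcn, the acyltransferase Porcupine that lipid-modifies the ligands, had 536 and 508 normalized counts in LOF, 606 and 643 in GOF, 750 and 717 in Krt14 8-week, 1560 and 1209 in Krt14 6-week and 433 and 387 in Inv. Krt14 6-week was highest and Inv lowest, with no overlap between any of the 5 groups. Porcn was 2.63-fold lower in LOF than in Krt14 6-week (-1.39, SE 0.14, adjusted p = 5.69e-05) and 1.87-fold lower in Krt14 8-week than in 6-week (adjusted p = 0.0083). It was higher in GOF than in Inv (0.61, SE 0.14, adjusted p = 0.0169) and in Krt14 8-week than in Inv (0.84, SE 0.14, adjusted p = 0.00215). Wls, the carrier Wntless, had 4146 and 4704 in LOF, 3167 and 2405 in GOF, 2918 and 2872 in Krt14 8-week, 2542 and 2116 in Krt14 6-week and 3798 and 4304 in Inv. It was higher in LOF than in Krt14 6-week (0.93, SE 0.14, adjusted p = 0.00072), and lower in GOF than in Inv (-0.55, adjusted p = 0.025) and in Krt14 8-week than in Inv (-0.48, adjusted p = 0.0351). The Porcn call in GOF relative to Inv ended without either Inv library (0.53 to 0.69), and that in Krt14 8-week relative to 6-week without either 8-week library (-0.94 to -0.87). The Wls calls ended in GOF relative to Inv without GOF replicate 2 or either Inv library (-0.64 to -0.35) and in Krt14 8-week relative to Inv without any 1 of the 4 libraries (-0.57 to -0.39) and after median-of-ratios rescaling (-0.39).

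Among the 15 receptors, all tested, 3 were higher and 2 lower in LOF than in Krt14 6-week (33.3%, near the 30.9% of all genes), and 3 were higher and 5 lower in GOF than in Krt14 8-week (53.3%, against 27.7%). Ror1, a tyrosine kinase-like receptor for Wnt5a, had the widest range as a ratio of highest to lowest library (16.2-fold) among the 14 receptors other than Fzd9, which reached 0, with 1524 and 2262 normalized counts in LOF, 1008 and 695 in GOF, 262 and 182 in Krt14 8-week, 294 and 140 in Krt14 6-week and 981 and 1059 in Inv. Its Krt14 control libraries lay at 294 or below and the other 6 at 695 or above. Ror1 was 9.11-fold higher in LOF than in Krt14 6-week (3.19, SE 0.33, adjusted p = 5.56e-05), 3.82-fold higher in GOF than in Krt14 8-week (adjusted p = 0.00152) and 4.65-fold lower in Krt14 8-week than in Inv (adjusted p = 0.00085).

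Ror2, its close relative, had 811 and 1017 in LOF, 748 and 695 in GOF, 310 and 304 in Krt14 8-week, 361 and 225 in Krt14 6-week and 708 and 572 in Inv, the same order of Krt14 controls below the rest. Its change was 1.67 in LOF relative to Krt14 6-week (SE 0.21, adjusted p = 0.000234), 1.23 in GOF relative to Krt14 8-week (adjusted p = 0.00177) and -1.05 in Krt14 8-week relative to Inv (adjusted p = 0.00575); the last ended without Inv replicate 1 (-0.90). In LOF relative to Krt14 6-week, both receptors were thus higher while their ligand Wnt5a was lower. Ryk, a receptor without kinase activity, was not called in any comparison and lay between 2852 and 3965.

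The Frizzled genes differed in direction. Fzd10 had 1125 and 1229 in LOF, 1068 and 695 in GOF, 641 and 544 in Krt14 8-week, 481 and 409 in Krt14 6-week and 817 and 633 in Inv, and was called in LOF relative to Krt14 6-week alone (1.40, SE 0.20, adjusted p = 0.000517). Fzd5 went the other way, with 627 and 641 in LOF, 1063 and 1191 in GOF, 1874 and 1592 in Krt14 8-week, 1844 and 1615 in Krt14 6-week and 940 and 881 in Inv. Its Krt14 controls lay above every other library. Fzd5 was 2.72-fold lower in LOF than in Krt14 6-week (-1.44, SE 0.12, adjusted p = 2.08e-05), 1.53-fold lower in GOF than in Krt14 8-week (adjusted p = 0.00409) and 1.90-fold higher in Krt14 8-week than in Inv (adjusted p = 0.000479). Without Krt14 8-week replicate 1, the call in GOF relative to Krt14 8-week ended (-0.50).

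Fzd7, per kilobase the most abundant receptor as a mean over the 10 libraries (1083 normalized counts per kb), though in GOF (569) it stood below Ryk (799), Fzd1 (653) and Fzd6 (636), differed between the drivers. It had 6066 and 5524 in LOF, 2811 and 2343 in GOF, 6503 and 6304 in Krt14 8-week, 6346 and 5806 in Krt14 6-week and 3757 and 3622 in Inv. All 6 libraries of the Krt14 driver lay at 5524 or above, and the 4 of the Inv driver at 3757 or below. Fzd7 was 2.49-fold lower in GOF than in Krt14 8-week (-1.32, SE 0.11, adjusted p = 1.63e-05), 1.74-fold higher in Krt14 8-week than in Inv (0.80, SE 0.11, adjusted p = 0.000438) and 1.44-fold lower in GOF than in Inv (adjusted p = 0.00812). That last call ended without either Inv library (-0.55 to -0.50).

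Fzd2 had 697 and 506 in LOF, 376 and 380 in GOF, 924 and 811 in Krt14 8-week, 521 and 468 in Krt14 6-week and 740 and 646 in Inv, with GOF lowest. It was lower in GOF than in Inv (-0.87, SE 0.17, adjusted p = 0.00629) and than in Krt14 8-week (-1.19, adjusted p = 0.000476), and higher in Krt14 8-week than in 6-week (0.81, adjusted p = 0.0247). Fzd3 had 1208 and 1155 in GOF, against 919 and 816 in Krt14 8-week and 742 and 752 in Inv, and was higher in GOF than in Inv (0.66, adjusted p = 0.00493) and than in Krt14 8-week (0.45, adjusted p = 0.0175); it had 1051 and 932 in LOF and 968 and 873 in Krt14 6-week. Fzd1 had 2989 and 2494 in GOF, against 3998 and 3920 in Krt14 8-week (-0.54, adjusted p = 0.0181), and 2782 to 4899 in the other libraries. Fzd6, known for hair orientation, had 2453 and 3674 in GOF, against 1918 and 1857 in Inv (0.67, adjusted p = 0.018), and 1991 to 2831 elsewhere. The Fzd2 call ended in GOF relative to Inv without Inv replicate 1 (-0.77) and in Krt14 8-week relative to 6-week without any 1 of the 4 libraries (0.71 to 0.90). Fzd1 ended without GOF replicate 2 or either Krt14 8-week library (-0.55 to -0.41). Fzd6 ended without GOF replicate 2 or either Inv library (0.38 to 0.69). In GOF relative to Krt14 8-week, Fzd3 ended without Krt14 replicate 2 (0.36). Both Fzd3 calls ended with Xist as a covariate and in fits to only the groups compared.

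Lrp5, a co-receptor of the beta-catenin branch, had 2367 and 2021 in LOF, 2427 and 2434 in GOF, 3223 and 3226 in Krt14 8-week, 3175 and 3830 in Krt14 6-week and 2089 and 1671 in Inv. The Krt14 controls lay above every other library, and Lrp5 was lower in LOF than in Krt14 6-week (-0.67, SE 0.13, adjusted p = 0.0032) and higher in Krt14 8-week than in Inv (0.79, SE 0.13, adjusted p = 0.00196). Its call in GOF relative to Krt14 8-week (-0.41, adjusted p = 0.041) ended without any 1 of the 4 libraries, at -0.41 each time. Lrp6, the second co-receptor, varied least of all 15 receptors: it ranged from 4879 to 5483 and was never called. Fzd4 lay between 85 and 143 except for 307 in GOF replicate 2, and Fzd9, below 50 as a mean in every group, reached its highest value of 50 in the same library, the one with the highest Kdr, Cdh5 and Emcn. Fzd8 lay between 116 and 192; neither it nor Fzd4 or Fzd9 was called.

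**Figure D3:**
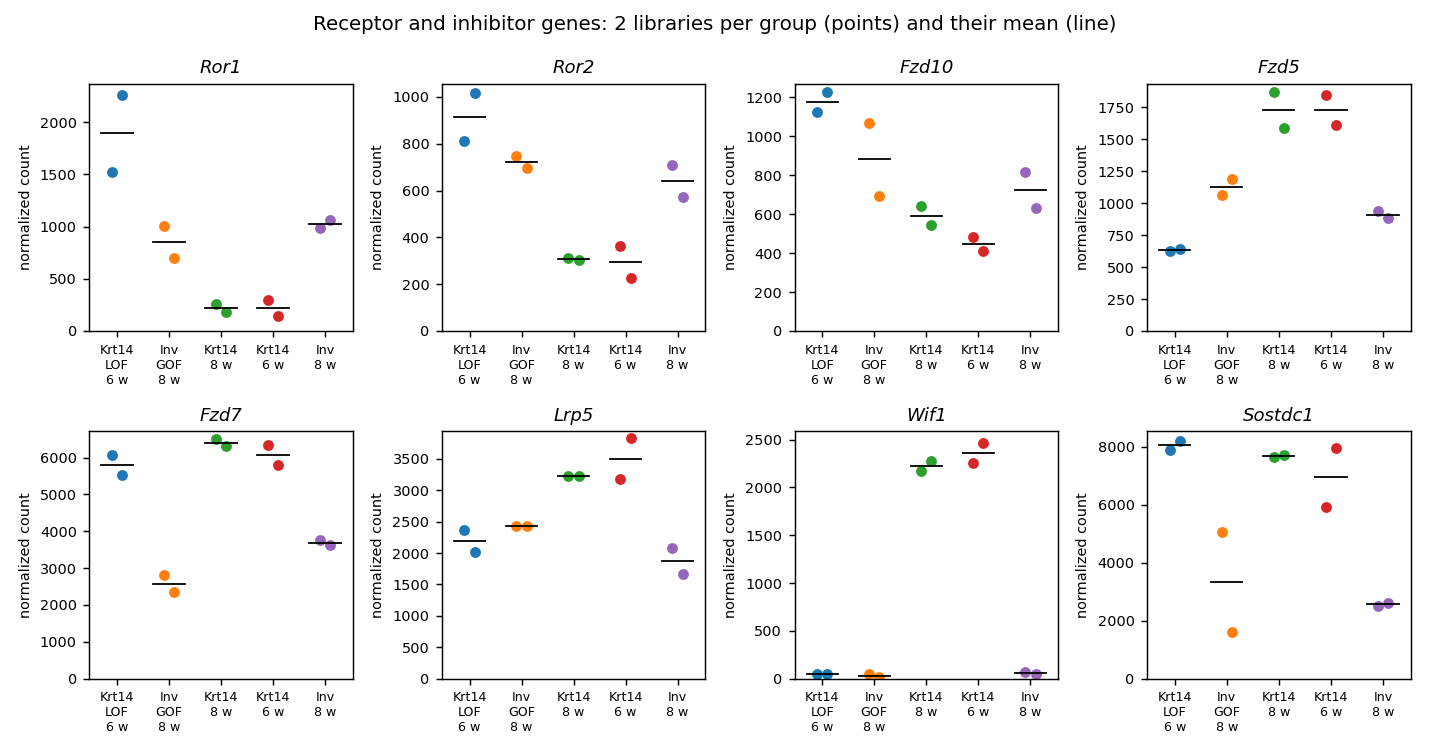
Normalized counts (y axis, from 0) of 6 receptor genes and 2 secreted inhibitors in the 5 groups (x axis); points are the 2 libraries of a group and the line their mean. Ror1 and Ror2 are lowest, and Fzd5, Lrp5 and Wif1 highest, in the Krt14 control groups, while Fzd7 separates the Krt14 driver (5524 or above) from the Inv driver (3757 or below).

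Of the secreted inhibitors, Wif1, which binds Wnt ligands outside the cell, had the largest change of any of the 60 genes. It had 50 and 46 normalized counts in LOF, 49 and 16 in GOF, 2177 and 2278 in Krt14 8-week, 2255 and 2464 in Krt14 6-week and 69 and 48 in Inv. It was thus at 2177 or above in the 4 Krt14 control libraries and at 69 or below in the other 6. Wif1 was 48.2-fold lower in LOF than in Krt14 6-week (-5.59, SE 0.39, limma adjusted p = 6.03e-06), 76.4-fold lower in GOF than in Krt14 8-week (-6.26, SE 0.39, adjusted p = 4.25e-06) and 38.0-fold higher in Krt14 8-week than in Inv (5.25, SE 0.39, adjusted p = 9.26e-06). Each call remained with any library left out. Those of LOF and GOF ended with Xist as a covariate, at changes of -2.06 and -3.15.

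Sostdc1, an inhibitor of Wnt and BMP signalling, was per kilobase the most abundant inhibitor (mean 3208 normalized counts per kb). It had 7892 and 8200 in LOF, 5064 and 1605 in GOF, 7639 and 7699 in Krt14 8-week, 5928 and 7967 in Krt14 6-week and 2517 and 2624 in Inv. The 6 Krt14 driver libraries lay above every library of the Inv driver, and the 2 GOF libraries lay on either side of Inv. Sostdc1 was higher in Krt14 8-week than in Inv (1.58, SE 0.37, adjusted p = 0.0134) and lower in GOF than in Krt14 8-week (-1.43, SE 0.37, adjusted p = 0.0159). The first call ended without any 1 of the 4 libraries (1.55 to 1.61), the second without either Krt14 library (-1.43 to -1.42), and both in a robust fit; with Xist as a covariate the second change was 2.12, of the opposite sign.

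Dkk3, a divergent member of the Dickkopf family, had 640 and 907 in LOF, 753 and 1165 in GOF, 553 and 595 in Krt14 8-week, 853 and 879 in Krt14 6-week and 328 and 332 in Inv, where it was lowest. It was higher in GOF than in Inv (1.5, SE 0.21, adjusted p = 0.00108), in Krt14 8-week than in Inv (0.80, adjusted p = 0.0203) and in GOF than in Krt14 8-week (0.71, adjusted p = 0.0265). Sfrp1, a secreted Frizzled-related inhibitor, had 830 and 1386 in GOF, against 577 and 595 in Krt14 8-week (0.87, SE 0.23, adjusted p = 0.0153), and 411 to 665 in the other libraries. The Dkk3 call in GOF relative to Inv ended with Xist as a covariate, at a change of 0.04, and in a fit to only these groups. Its call in Krt14 8-week relative to Inv ended without any 1 of the 4 libraries (0.74 to 0.85). In GOF relative to Krt14 8-week, Dkk3 (0.39 to 0.76) and Sfrp1 (0.50 to 0.89) ended without GOF replicate 2 or either Krt14 library, and with Xist as a covariate they stood at -0.98 and -0.51. Dkk3 also ended there after median-of-ratios rescaling (0.63).

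Most other inhibitors were near the floor. Dkk1 and Sfrp4 were listed at 0 in every library, Dkk2 reached 3 and Frzb 6. Dkk4 (0 to 19), Dkkl1 (5 to 21), Sfrp2 (0 to 38), Sfrp5 (3 to 29) and Notum (3 to 26) stayed below 50. Of the R-spondins, which amplify Wnt signals, Rspo2 and Rspo3 reached 3 and Rspo1 10. With 3 reads worth 6.76 to 7.80, Dkk1, Dkk2, Sfrp4, Frzb, Rspo2 and Rspo3 were not detectable at this depth. Of those above it in some libraries, Sfrp5 was called higher and Notum lower in LOF than in Krt14 6-week. Sfrp2 was called lower in Krt14 8-week than in Inv and higher in GOF than in Krt14 8-week. In each of these calls the lower group lay below 3 reads. Sfrp5 had 3 and 3 in Krt14 6-week, Notum 5 and 3 in LOF, and Sfrp2 5 and 0 in Krt14 8-week.

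The ubiquitin ligases that remove Frizzled receptors from the surface, Rnf43 and Znrf3, are targets of the pathway and were both higher in LOF than in Krt14 6-week. Rnf43 had 1234 and 1114 normalized counts in LOF, 1234 and 1342 in GOF, 1252 and 1276 in Krt14 8-week, 707 and 700 in Krt14 6-week and 1361 and 1297 in Inv, so that Krt14 6-week stood alone at the low end. The change was 0.74 in LOF relative to Krt14 6-week (SE 0.11, adjusted p = 0.00053) and 0.84 in Krt14 8-week relative to 6-week (SE 0.11, adjusted p = 0.00317), the last lost without Krt14 8-week replicate 2 (0.83). Znrf3 had 4540 and 3434 in LOF, 3663 and 3029 in GOF, 2707 and 2627 in Krt14 8-week, 2382 and 2201 in Krt14 6-week and 2785 and 2997 in Inv. The Krt14 controls were lowest, and Znrf3 was 1.72-fold higher in LOF than in Krt14 6-week (0.79, SE 0.14, adjusted p = 0.00162).

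Of the 4 feedback inhibitors inside or on the cell, 3 were higher in LOF than in Krt14 6-week (75% changed, against 30.9% of all genes). Axin2, the scaffold of the destruction complex that beta-catenin itself induces, had 1177 and 875 in LOF, 780 and 1150 in GOF, 764 and 653 in Krt14 8-week, 664 and 672 in Krt14 6-week and 626 and 554 in Inv. Both LOF and both GOF libraries lay above all 6 others. It was 1.52-fold higher in LOF than in Krt14 6-week (0.60, SE 0.19, adjusted p = 0.0372) and 1.61-fold higher in GOF than in Inv (0.68, SE 0.19, adjusted p = 0.0376). Both calls ended when 1 library was left out, which leaves 1 in its group. The first ended without LOF replicate 1 or either Krt14 6-week library (0.39 to 0.61). The second ended without GOF replicate 2 or either Inv library (0.40 to 0.77). The first also ended after median-of-ratios rescaling (0.46) and quantile normalization (0.54), and stood at -0.19 with Xist as a covariate.

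Nkd1, which inhibits Dishevelled, had 427 and 273 in LOF, 224 and 123 in GOF, 56 and 59 in Krt14 8-week, 55 and 39 in Krt14 6-week and 258 and 233 in Inv. Its Krt14 controls lay at 59 or below and all others at 123 or above. Nkd1 was 7.24-fold higher in LOF than in Krt14 6-week (2.86, SE 0.32, adjusted p = 0.000107), 2.86-fold higher in GOF than in Krt14 8-week (adjusted p = 0.0057) and 4.21-fold lower in Krt14 8-week than in Inv (adjusted p = 0.00125). Apcdd1, a membrane inhibitor linked to hair loss in humans, had 1405 and 1232 in LOF, 962 and 1095 in GOF, 1419 and 1337 in Krt14 8-week, 789 and 840 in Krt14 6-week and 1036 and 807 in Inv. LOF and Krt14 8-week were high and Krt14 6-week low. Apcdd1 was higher in LOF than in Krt14 6-week (0.69, SE 0.14, adjusted p = 0.00377), in Krt14 8-week than in 6-week (0.76, adjusted p = 0.0158) and in Krt14 8-week than in Inv (0.59, adjusted p = 0.0133), and lower in GOF than in Krt14 8-week (-0.42, adjusted p = 0.0439). It lost its call in Krt14 8-week relative to 6-week without any 1 of the 4 libraries (0.71 to 0.80), and relative to Inv without either Krt14 library or Inv replicate 2 (0.41 to 0.63). In GOF relative to Krt14 8-week it ended without GOF replicate 1 or either Krt14 library (-0.47 to -0.33). Nkd2 stayed between 12 and 44.

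The nuclear partners of beta-catenin went in opposite directions. Lef1, high in the hair matrix and its precursors, had 721 and 548 normalized counts in LOF, 1140 and 783 in GOF, 674 and 526 in Krt14 8-week, 352 and 202 in Krt14 6-week and 1213 and 1168 in Inv. Inv was highest and Krt14 6-week lowest. The group means stood in the same order as those of the summed hair matrix and shaft list. That list holds Lef1 itself, and Krt36 was the largest part of its GOF and Inv sums. Lef1 was higher in LOF than in Krt14 6-week (1.23, SE 0.26, adjusted p = 0.00483) and in Krt14 8-week than in 6-week (1.16, adjusted p = 0.0343), and lower in Krt14 8-week than in Inv (-1.0, adjusted p = 0.021). Tcf7, the factor Tcf1, had 769 and 986 in LOF, 1566 and 1274 in GOF, 1072 and 1059 in Krt14 8-week, 2138 and 1651 in Krt14 6-week and 1072 and 924 in Inv. It was highest in Krt14 6-week and lower in LOF (-1.11, SE 0.17, adjusted p = 0.000646) and in Krt14 8-week (-0.82, adjusted p = 0.0235) than there. Both factors are also expressed by T cells. The 7 T cell genes summed to 113 to 121 in LOF, 46 to 109 in GOF, 160 to 178 in Krt14 8-week, 165 to 195 in Krt14 6-week and 152 to 171 in Inv. Most of this was Lck (32 to 87) and Trac, at 53 and 32 in LOF and 86 and 117 in Krt14 6-week, while Cd3d, Cd3e and Cd3g lay between 0 and 16. Neither Trac nor Lck was called in LOF relative to Krt14 6-week, and the part of T cells in the Tcf7 values was not tested. The Lef1 call ended in LOF relative to Krt14 6-week without Krt14 6-week replicate 2 (0.83), in Krt14 8-week relative to 6-week without either 8-week library or 6-week replicate 2 (0.76 to 1.33) and with voom on recovered reads (1.15), and relative to Inv without any 1 of the 4 libraries (-1.18 to -0.82). That of Tcf7 in Krt14 8-week relative to 6-week ended without either 8-week library or 6-week replicate 1 (-0.83 to -0.63).

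**Figure D4:**
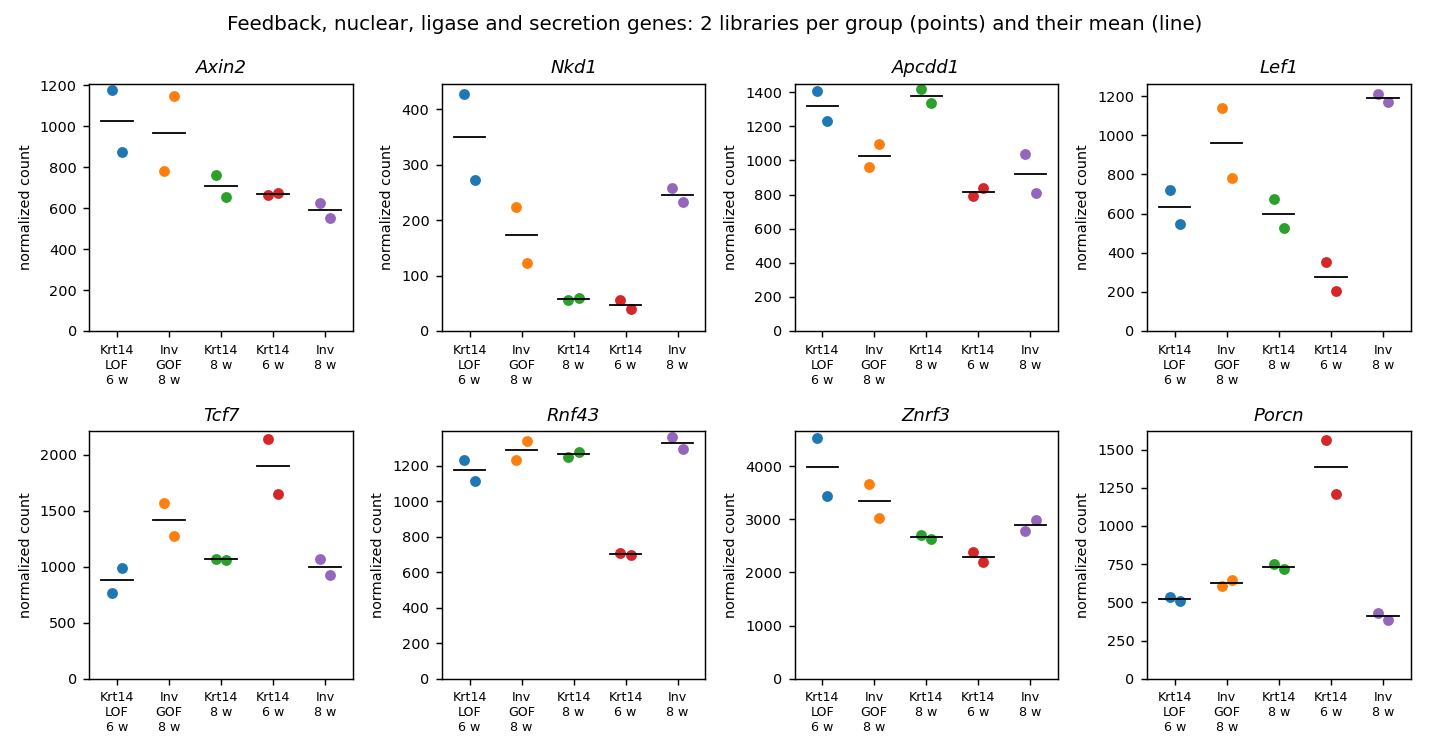
Normalized counts (y axis, from 0) of 8 feedback, nuclear, ligase and secretion genes in the 5 groups (x axis); points are the 2 libraries of a group and the line their mean. Nkd1 is lowest in the Krt14 control groups (39 to 59), Rnf43 in Krt14 6-week alone (700 and 707), and Porcn and Tcf7 are highest in Krt14 6-week.

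The core transduction genes ranged by 1.16-fold (Gsk3b) to 1.71-fold (Axin1) between their lowest and highest libraries. In GOF relative to Inv, 2 of the 4 were called (50%, against 15.3% of all genes). Ctnnb1, which encodes beta-catenin, had 25560 and 23780 normalized counts in LOF, 22915 and 17338 in GOF, 25832 and 23907 in Krt14 8-week, 27854 and 26256 in Krt14 6-week and 26254 and 27028 in Inv. It was lower in GOF than in Inv (-0.42, SE 0.12, adjusted p = 0.0378), a call lost without GOF replicate 2 or either Inv library (-0.44 to -0.22) and standing at 0.40 with Xist as a covariate. Axin1, the constant scaffold of the destruction complex, had 1517 and 1561 in LOF, 2032 and 2218 in GOF, 1465 and 1390 in Krt14 8-week, 1345 and 1413 in Krt14 6-week and 1395 and 1294 in Inv. GOF stood alone at the high end. Axin1 was 1.58-fold higher there than in Inv (0.66, SE 0.10, limma adjusted p = 0.00198). Relative to Krt14 8-week it was 1.49-fold higher (0.57, SE 0.10, limma adjusted p = 0.00199). Both Axin1 calls ended with Xist as a covariate, and that relative to Inv also in a fit to only these groups. Apc (5179 to 6918) and Gsk3b (6717 to 7775), its partners in the complex, were never called.

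The comparison of Survivin loss with the comparison of drivers can be set side by side, since they share no library. Of the 29 genes called in LOF relative to Krt14 6-week and the 22 called in Krt14 8-week relative to Inv, 17 were called in both, 58.6% of the first and 77.3% of the second. Of these, 15 moved in opposite directions (88.2%). Over all genes tested the same overlap was 42.6% of the first and 67.3% of the second, and 96.9% of the genes called in both moved in opposite directions. Wnt3, Wnt3a, Wnt4, Wnt10b, Wls, Ror1, Ror2, Nkd1 and Lef1 were higher in LOF than in Krt14 6-week and lower in Krt14 8-week than in Inv. Wnt9a, Wnt10a, Porcn, Fzd5, Lrp5 and Wif1 did the reverse. Wnt7b and Apcdd1 were higher in both.

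**Figure D5:**
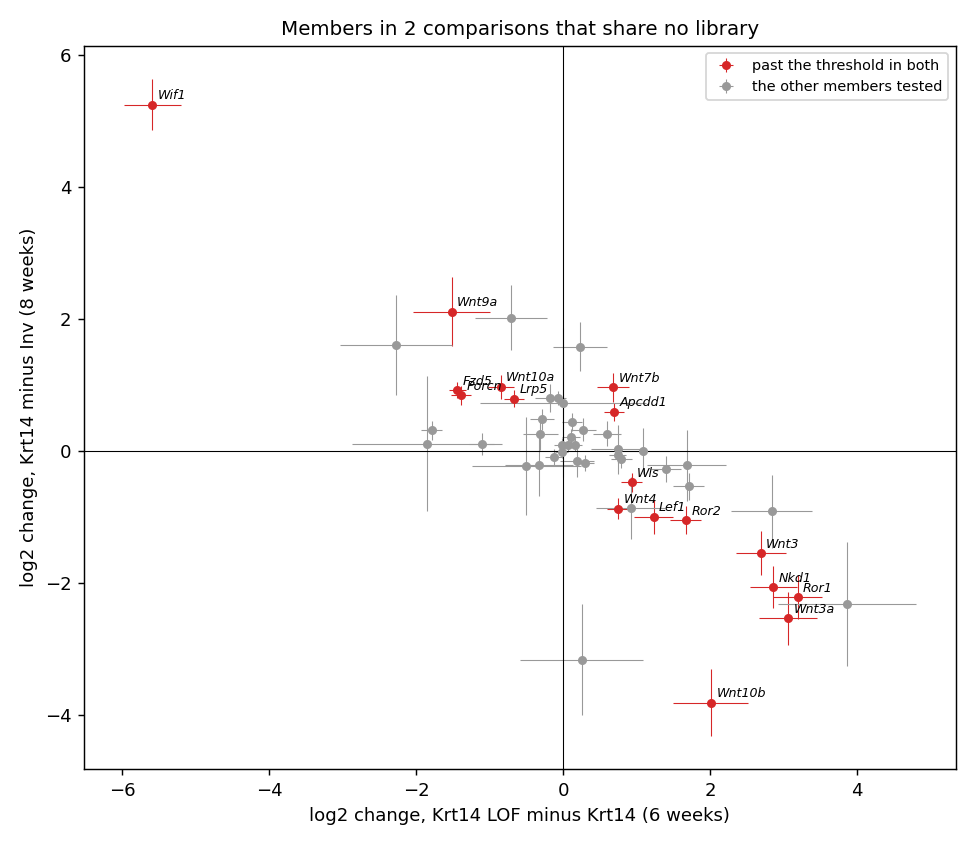
Log2 change of each of the 52 tested Wnt genes in LOF relative to Krt14 6-week (x axis) and in Krt14 8-week relative to Inv (y axis), with bars of 1 SE. Red points are the 17 genes past the threshold in both; 15 of them lie in the upper left or lower right, with Wif1 at -5.59 and 5.25.

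Survivin loss and Survivin gain, likewise without a shared library, had 6 called genes in common, 20.7% of the 29 in LOF relative to Krt14 6-week and 46.2% of the 13 in GOF relative to Inv, near the 23.0% and 46.6% over all genes tested. The directions were opposite in 3 of the 6, against 49.0% of the genes called in both over all genes. Wnt5a was lower in both, and Wnt7b and Axin2 were higher in both. Wnt10a and Porcn were lower in LOF and higher in GOF than in their controls, and Wls was higher in LOF and lower in GOF. Across the series, 7 of the 52 tested genes had all 4 Krt14 control libraries above the other 6 (13.5%, against 8.54% of all genes): Wnt5a, Wnt9a, Porcn, Fzd5, Lrp5, Wif1 and Notum. Another 10 had them below (19.2%, against 12.4%): Wnt3, Wnt3a, Wnt4, Wnt6, Wnt10b, Wnt16, Ror1, Ror2, Znrf3 and Nkd1. In all, 41 of the 52 were called in at least 1 comparison (78.8%, against 49.9% of all genes).

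Other extracellular Wnt genes changed as well. Of 16 tested, 7 were higher and 1 lower in LOF than in Krt14 6-week (50%, against 30.9% of all genes), 4 higher and 4 lower in GOF than in Inv (50%, against 15.3%), 6 higher and 5 lower in Krt14 8-week than in Inv (68.8%, against 19.6%), and 4 higher and 6 lower in GOF than in Krt14 8-week (62.5%, against 27.7%). Lrp4, a receptor for Sostdc1, had 3994 and 4262 normalized counts in LOF, against 1622 and 1196 in Krt14 6-week (1.57, SE 0.15, adjusted p = 4.37e-05), and 4492 and 5566 in GOF, against 1567 and 1847 in Krt14 8-week (1.55, adjusted p = 5.81e-05). Lgr6, a stem cell receptor for R-spondins, had 3237 and 5044 in GOF and 7112 and 6564 in Krt14 8-week, against 1602 and 1482 in Inv, changes of 1.39 and 2.15 (adjusted p = 0.000927 and 2.26e-05). Lgr5, its follicle relative, had 1862 and 1734 in GOF, against 3017 and 3198 in Inv (-0.79, adjusted p = 0.00617) and 4054 and 3902 in Krt14 8-week (-1.15, adjusted p = 0.000333). Adgra2, a co-receptor for Wnt7 ligands, had 340 and 255 in LOF, against 79 and 50 in Krt14 6-week (2.21, adjusted p = 0.000541).

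The intracellular genes of the pathway were called about as often as all genes in LOF relative to Krt14 6-week, where 7 of 28 were higher and 2 lower (32.1%, against 30.9%). Of the same 28, 6 were higher and 2 lower in Krt14 8-week than in Inv (28.6%, against 19.6%), and 4 higher and 6 lower in GOF than in Krt14 8-week (35.7%, against 27.7%). In GOF relative to Inv 1 was called (3.57%, against 15.3%), the corepressor Tle3, which was higher (0.38, adjusted p = 0.0244) and lost its call without GOF replicate 2 or Inv replicate 2 (0.28 to 0.32). Pygo1, a coactivator of beta-catenin, had 1058 and 1171 in LOF, against 256 and 225 in Krt14 6-week (2.21, SE 0.19, adjusted p = 1.84e-05), and 389 and 406 in Krt14 8-week, against 952 and 978 in Inv (-1.28, adjusted p = 0.000812). Of 20 planar polarity genes, 4 were higher and 7 lower in LOF than in Krt14 6-week (55%, against 30.9%), 4 higher and 1 lower in GOF than in Inv (25%, against 15.3%), 6 higher and 1 lower in Krt14 8-week than in Inv (35%, against 19.6%), and 2 higher and 3 lower in GOF than in Krt14 8-week (25%, against 27.7%). Ankrd6 (Diversin) had 474 and 557 in LOF, against 53 and 34 in Krt14 6-week (3.57, SE 0.32, adjusted p = 2.59e-05), and 42 and 26 in Krt14 8-week, against 503 and 472 in Inv (-3.84, SE 0.32, adjusted p = 1.74e-05). The core polarity genes Vangl1 (-0.79) and Celsr2 (-0.81) were lower in LOF than in Krt14 6-week, and Vangl1 (1.23) and Celsr2 (1.00) were higher in Krt14 8-week than in Inv. Their paralogues went the other way in LOF: Celsr1 had 4364 and 5067, against 3526 and 3474 in Krt14 6-week (0.43, adjusted p = 0.0104), and Vangl2 3985 and 3784, against 2890 and 2694 (0.48, adjusted p = 0.0216). Both of these calls ended after median-of-ratios rescaling (0.28 and 0.33), Celsr1 also without LOF replicate 2 or Krt14 6-week replicate 2 (0.32 to 0.42) and Vangl2 without any 1 of the 4 libraries (0.43 to 0.53). In Krt14 8-week relative to Inv, Celsr1 was higher (0.60) and Vangl2 was not called.

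Of 10 further target genes tested, 3 were higher and 4 lower in LOF than in Krt14 6-week (70%, against 30.9% of all genes), 1 higher and 1 lower in GOF than in Inv (20%, against 15.3%), 2 higher and 1 lower in Krt14 8-week than in Inv (30%, against 19.6%), and 3 higher and 4 lower in GOF than in Krt14 8-week (70%, against 27.7%). Tnfrsf19 (Troy) had 4165 and 2997 in LOF, against 495 and 380 in Krt14 6-week (3.02, SE 0.37, adjusted p = 0.000177), and 799 and 635 in Krt14 8-week, against 4549 and 4383 in Inv (-2.65, adjusted p = 0.000617). Tbx3 (-1.35) was lower and Bambi (2.07) higher in LOF than in Krt14 6-week. Edar, the ectodysplasin receptor of early hair placodes, had 218 and 189 in Krt14 8-week, against 32 and 3 in Krt14 6-week (4.15, SE 0.70, adjusted p = 0.0108), the 1 gene of these 4 lists called there; it lost its call without either 8-week library (4.05 to 4.25). Cd44 had 11860 and 7709 in GOF, against 14928 and 16709 in Inv (-0.72, adjusted p = 0.0137), and Myc 972 and 2335 in GOF, against 799 and 737 in Inv (0.97, adjusted p = 0.045). These 2 calls, and that of Lgr5 in the same comparison, ended when 1 library was left out, which leaves 1 in its group. Cd44 ended without either Inv library (-0.81 to -0.64) and Lgr5 without Inv replicate 2 (-0.75). Myc ended without GOF replicate 2 or either Inv library (0.34 to 1.03). Myc kept its call in only 6 of 15 alternatives. It also lost it with a pseudocount of 0.5, without a filter, after median-of-ratios rescaling and in a robust fit.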

How the data were processed

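RNA from FACS-isolated SmoM2-YFP-positive epidermal cells was extracted with a column micro kit and made into Ovation Solo libraries from polyA RNA, per the labels' protocols. Alignment used STAR and counting HTSeq on GRCm38 (mm10), per the submitters' processing notes. Versions, annotation, strand setting and normalization were not given in the sources used here. Values as deposited are whole numbers on a normalized scale, treated as a score and called normalized counts: column totals lay at 20011195 to 20014054, and below 20000 some 99.3% to 99.9% of entries are whole multiples of 1 library-specific step after rounding up. No count test was run, since the values are not raw counts.

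Genes at 10 or more in 2 or more libraries (21995 of 49671) were tested on log2(value + 1) in a single fit of 5 group means with limma 3.58.1 in R 4.3.3 (eBayes with trend, 5 residual degrees of freedom, median prior 5.91), two-sided, adjusted by Benjamini-Hochberg over all genes, at 0.05. An exact test of 2 libraries against 2 cannot go below p = 0.333. Same-numbered libraries did not deviate together (correlations -0.05 to -0.01), so no pairing was used. Replicates correlated at 0.957 in GOF and 0.971 to 0.978 elsewhere, and differed by more than sampling noise in every group. The excess was largest in GOF (chi-square per degree of freedom 19, against 2.47 to 6.21 in the other groups). The fit shares 1 spread over the 5 groups, so standard errors and p-values of comparisons with GOF may be too small. Per-kilobase levels divide by exon length in GENCODE M21, which matched 49326 genes.

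The genes and lists were chosen with earlier results of these data known. Genes called at least once with a group mean of at least 50 are named with values, as are the 2 highest never called per role; up to 3 called genes of the smallest p per further list could be named. Alternatives were the pseudocount, the filter, 2 rescalings, a replicate block, Xist as covariate, a robust fit, a fit to only the groups compared, each library left out and, chosen after seeing the data, limma's voom on recovered reads; running them all on the named genes outside the 60 was also added then. Celsr1 and Vangl2 were named after their values were seen. Floors cover counting error only, since without molecular identifiers PCR copies were counted as reads.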

Additional observations from a re-analysis of the deposited data

How the results depend on the processing

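Directions of the called genes with a group mean of at least 50, and of those named from the further lists, were kept under all alternatives run except Xist as a covariate. Wnt7a, Wnt9a, Sfrp2, Sfrp5 and Notum, below that mean, are not covered by this statement. With it, changes took the opposite sign for Wnt10a (0.39), Axin2 (-0.19) and Celsr1 (-0.26) in LOF relative to Krt14 6-week, Fzd6 (-0.42), Ctnnb1 (0.40), Cd44 (0.50) and Myc (-1.34) in GOF relative to Inv, and Wnt6 (-0.27), Dkk3 (-0.98), Sfrp1 (-0.51) and Sostdc1 (2.12) in GOF relative to Krt14 8-week; the cause was not tested. Counts of Wnt genes then fell to 11 in LOF relative to Krt14 6-week, 1 in GOF relative to Inv and 2 in GOF relative to Krt14 8-week, and counts of all genes were 941, 40 and 202 there and 1780 in Krt14 8-week relative to 6-week. Without a filter, which tests more genes, 8 Wnt genes changed in GOF relative to Inv, 3 in Krt14 8-week relative to 6-week (536 of all genes) and 14 in GOF relative to Krt14 8-week. Fits to only the groups compared, with fewer libraries, gave 1 Wnt gene (389 of all genes) in GOF relative to Inv. In GOF relative to Krt14 8-week they gave 14 (3084 of all genes). In Krt14 8-week relative to Inv they gave 25 (5916 of all genes), above the 22 (4309) of the main fit. In Krt14 8-week relative to 6-week they gave 417 of all genes. Quantile normalization gave 468 there and voom on recovered reads, chosen after seeing the data, 701. With each library left out, Wnt genes changed numbered 20 to 24 in LOF relative to Krt14 6-week, 5 to 20 in GOF relative to Inv, 12 to 14 in Krt14 8-week relative to Inv, 0 to 5 in Krt14 8-week relative to 6-week and 13 to 25 in GOF relative to Krt14 8-week; all genes numbered 3772 to 5243, 943 to 6249, 1910 to 2256, 77 to 844 and 3302 to 7328 in the same order. The replicate block gave 28, 14, 24, 7 and 24 Wnt genes in that order; the numbers only name libraries, and no count moved by over 1.5 times. Named genes of the 60 called under every alternative numbered 6 of 25 in LOF relative to Krt14 6-week, 11 of 20 in Krt14 8-week relative to Inv, 2 of 21 in GOF relative to Krt14 8-week, and 0 of 13 and 0 of 7 in GOF relative to Inv and Krt14 8-week relative to 6-week. Of 26 results on named genes outside the 60, 10 kept their call under every alternative. Levels near 3 reads (6.76 to 7.80) are limited by depth.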
